A study of Mus musculus with 20 samples.

Results

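Foxa1, Foxa2, Foxa3, Gata2, Gata3 and Gata6 were followed by gene symbol through the deposited expression table, as 6 of its 23284 genes. They were taken as a named set of forkhead and GATA pioneer factors, and 3 of the 6 (Foxa1, Gata2 and Gata3) had values high enough to be tested. Pioneer factors are transcription factors that can bind their sites in closed chromatin and open them for other proteins. FOXA1 binds beside nuclear receptors at prostate enhancers, and GATA2 works with it at many of the same sites in prostate cells. FOXA2 and FOXA3 are best known from gut endoderm and liver, GATA3 from the Wolffian duct, breast epithelium and T cells, and GATA6 from endoderm, heart and smooth muscle.

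The libraries came from tissue recombinants, grafts in which mouse epithelium grows together with urogenital sinus mesenchyme from the rat, an embryonic stroma able to direct prostate formation. There were 4 poly-A RNA libraries in each of 5 groups. Those labelled mNKX3.1+UTY_sh were seminal vesicle epithelium with a construct named mNKX3.1 and a hairpin named UTY_sh, those labelled mNKX3.1 carried the construct, and those labelled UTY_sh carried the hairpin. PE was unmodified prostate epithelium and SVE was unmodified seminal vesicle epithelium, and the labels call the genotype of both wild type for NKX3.1. UTY is the Y-linked relative of a histone demethylase. All 5 groups shared Sprague Dawley rat mesenchyme, epithelial donors aged 2 months and collection 3 months after implantation, and doxycycline was given in the drinking water for 3 months. The labels give the mouse background as a hybrid of 129/SvImJ and C57Bl/6J in 1 field and as C57Bl/6J in another. The meaning of the m in mNKX3.1 is not stated, and nothing ties each library to an animal of its own, so p-values measure the spread between these libraries only, which may be technical.

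Values are log2 of size-normalised reads, held up at a floor: the 5801 genes averaging under 2.5 lay around a median of 2.27, and a value up to 3.22 (that median plus 2 SD) was taken as at the floor. Depth was about 23880000 to 29580000 reads in mNKX3.1+UTY_sh, 15290000 to 21610000 in mNKX3.1, 22380000 to 24770000 in UTY_sh, 14750000 to 20590000 in PE and 20110000 to 24850000 in SVE. The hairpin label was not borne out by its target: Uty differed from SVE by -0.14 (adjusted p = 0.9998 by limma) in the libraries labelled mNKX3.1+UTY_sh and by -0.07 (adjusted p = 0.999) in those labelled UTY_sh. Group names below are therefore labels and not verified genotypes. Each mNKX3.1 library was also close to a weighted sum of the PE libraries. Over 886 genes with whole reads in every library, the median squared residual was 1.49 to 2.60 times counting noise, against 4.72 to 12.5 times when each PE library was built from mNKX3.1 libraries, 2.95 to 30.2 for mNKX3.1+UTY_sh as sums of UTY_sh, 3.82 to 11.3 for mNKX3.1+UTY_sh as sums of SVE and 3.80 to 9.07 for UTY_sh as sums of SVE. The sums also gave the members: their reads in mNKX3.1 libraries differed from the PE sums by 0.502% to 3.99% for Foxa1, -5.97% to 4.05% for Gata2 and -4.48% to 2.58% for Gata3. The cause of this closeness was not tested, and every result of the mNKX3.1 group rests on these libraries.

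The 250 bases before the start sites of the 3 tested members are shown because Foxa1 and Gata2 moved in opposite directions and the letters of the factors' own sites could be looked for there. They are RefSeq sequences of the build GRCm38.p6, printed in the direction of transcription, with capitals marking a match to a forkhead motif. Foxa1 lies at chr12:57546112-57546361 on the minus strand, the 2 Gata2 starts at chr6:88193641-88193890 and chr6:88198414-88198663 on the plus strand, and Gata3 at chr2:9878601-9878850 on the minus strand.
Foxa1: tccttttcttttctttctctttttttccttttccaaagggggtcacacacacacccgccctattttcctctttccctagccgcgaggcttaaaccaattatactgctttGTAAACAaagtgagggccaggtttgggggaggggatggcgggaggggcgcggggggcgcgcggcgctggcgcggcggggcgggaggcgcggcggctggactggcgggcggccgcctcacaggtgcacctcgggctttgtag
Gata2 upstream start: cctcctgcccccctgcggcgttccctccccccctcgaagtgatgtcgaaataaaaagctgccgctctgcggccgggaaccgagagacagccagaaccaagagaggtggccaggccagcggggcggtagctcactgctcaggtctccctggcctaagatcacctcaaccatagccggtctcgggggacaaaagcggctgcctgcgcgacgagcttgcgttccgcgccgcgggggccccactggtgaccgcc
Gata2 downstream start: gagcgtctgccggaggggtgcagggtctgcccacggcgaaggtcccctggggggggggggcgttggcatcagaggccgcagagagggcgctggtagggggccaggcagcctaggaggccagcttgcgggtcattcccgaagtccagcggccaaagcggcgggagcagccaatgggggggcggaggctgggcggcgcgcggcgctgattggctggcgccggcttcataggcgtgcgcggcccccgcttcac
Gata3: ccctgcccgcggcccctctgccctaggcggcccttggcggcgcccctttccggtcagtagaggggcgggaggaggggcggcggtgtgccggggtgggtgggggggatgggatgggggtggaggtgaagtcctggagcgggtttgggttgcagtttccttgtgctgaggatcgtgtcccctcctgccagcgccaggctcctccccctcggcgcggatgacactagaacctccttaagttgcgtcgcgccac
The Foxa1 window held GTAAACA, the forkhead motif TGTTTAC read on the other strand, beginning 141 bases before the start. The GATA motif, AGATAA or TGATAA, was searched on both strands too and was found in none of these 4 windows. Among all 32851 promoter windows of this length, 5.76% held TGTTTAC or TATTTAC on either strand and 16.6% a GATA motif. The windows were rich in G and C, at 62% for Foxa1, 67.2% and 74% for Gata2 and 70% for Gata3, against a median of 52.4% over all windows. CG pairs numbered 21 in the Foxa1 window, 22 and 24 in those of Gata2 and 19 in that of Gata3, against a median of 6. A match of letters is not a bound site, and a missing match says only that the letters are not in this window.

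Foxa1 separated the groups into high and low ones. In mNKX3.1+UTY_sh its log2 values were 9.04, 9.13, 9.56 and 9.89, in mNKX3.1 12.12, 12.00, 11.81 and 11.92, and in UTY_sh 9.22, 9.56, 9.70 and 9.04. In PE they were 11.84, 11.60, 12.30 and 11.79, and in SVE 10.24, 9.19, 9.18 and 9.09. All 8 PE and mNKX3.1 libraries lay above all 12 others. How many of all genes split the libraries so fully was not counted. Limma called 62.1% of tested genes between PE and SVE and 62.3% between mNKX3.1 and SVE. In such bulk samples fewer cells of a type and less RNA per cell cannot be told apart, nor can rat reads that align to mouse genes. Means were 9.41 ± 0.40 in mNKX3.1+UTY_sh, 11.96 ± 0.13 in mNKX3.1, 9.38 ± 0.30 in UTY_sh, 11.88 ± 0.30 in PE and 9.42 ± 0.54 in SVE (SD, n = 4 each). From high to low the order was mNKX3.1, PE, SVE, mNKX3.1+UTY_sh and UTY_sh, and neighbours differed beyond their spread only between PE and SVE.

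Gata2 split the same groups the other way. Without regard to gene length, it had the highest mean log2 value of the 6 over all 20 libraries. Only 0.253% of all genes had a higher mean than Gata2. Its values were 14.30, 14.32, 14.28 and 13.93 in mNKX3.1+UTY_sh, 12.48, 12.14, 12.59 and 12.16 in mNKX3.1, and 14.25, 13.98, 14.00 and 14.20 in UTY_sh. PE gave 12.72, 12.25, 12.22 and 12.50, and SVE 13.86, 14.27, 14.18 and 14.35. Every PE and mNKX3.1 library was below every library of the 3 other groups, and the share of all genes that did so was not counted. Means were 14.21 ± 0.19 in mNKX3.1+UTY_sh, 12.34 ± 0.23 in mNKX3.1, 14.11 ± 0.14 in UTY_sh, 12.43 ± 0.23 in PE and 14.17 ± 0.21 in SVE (SD, n = 4 each). In whole reads, libraries held 17343 to 19248 of Gata2 in mNKX3.1+UTY_sh, 5416 to 7602 in mNKX3.1, 13810 to 16393 in UTY_sh, 4542 to 8660 in PE and 15037 to 16559 in SVE. The order was mNKX3.1+UTY_sh, SVE, UTY_sh, PE and mNKX3.1, with a step beyond the spread between UTY_sh and PE.

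Gata3 varied little. Its values were 12.05, 12.11, 12.26 and 12.20 in mNKX3.1+UTY_sh, 11.81, 11.65, 12.06 and 11.80 in mNKX3.1, and 12.18, 12.15, 12.08 and 12.03 in UTY_sh. They were 12.08, 11.97, 11.49 and 12.01 in PE and 12.25, 12.07, 12.13 and 12.06 in SVE. PE overlapped SVE, whereas the 4 mNKX3.1 libraries lay just below the lowest SVE library. Means were 12.15 ± 0.10 in mNKX3.1+UTY_sh, 11.83 ± 0.17 in mNKX3.1, 12.11 ± 0.07 in UTY_sh, 11.89 ± 0.27 in PE and 12.13 ± 0.09 in SVE (SD, n = 4 each). The order was mNKX3.1+UTY_sh, SVE, UTY_sh, PE and mNKX3.1, and no neighbouring groups were separated.

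**Figure D1:**
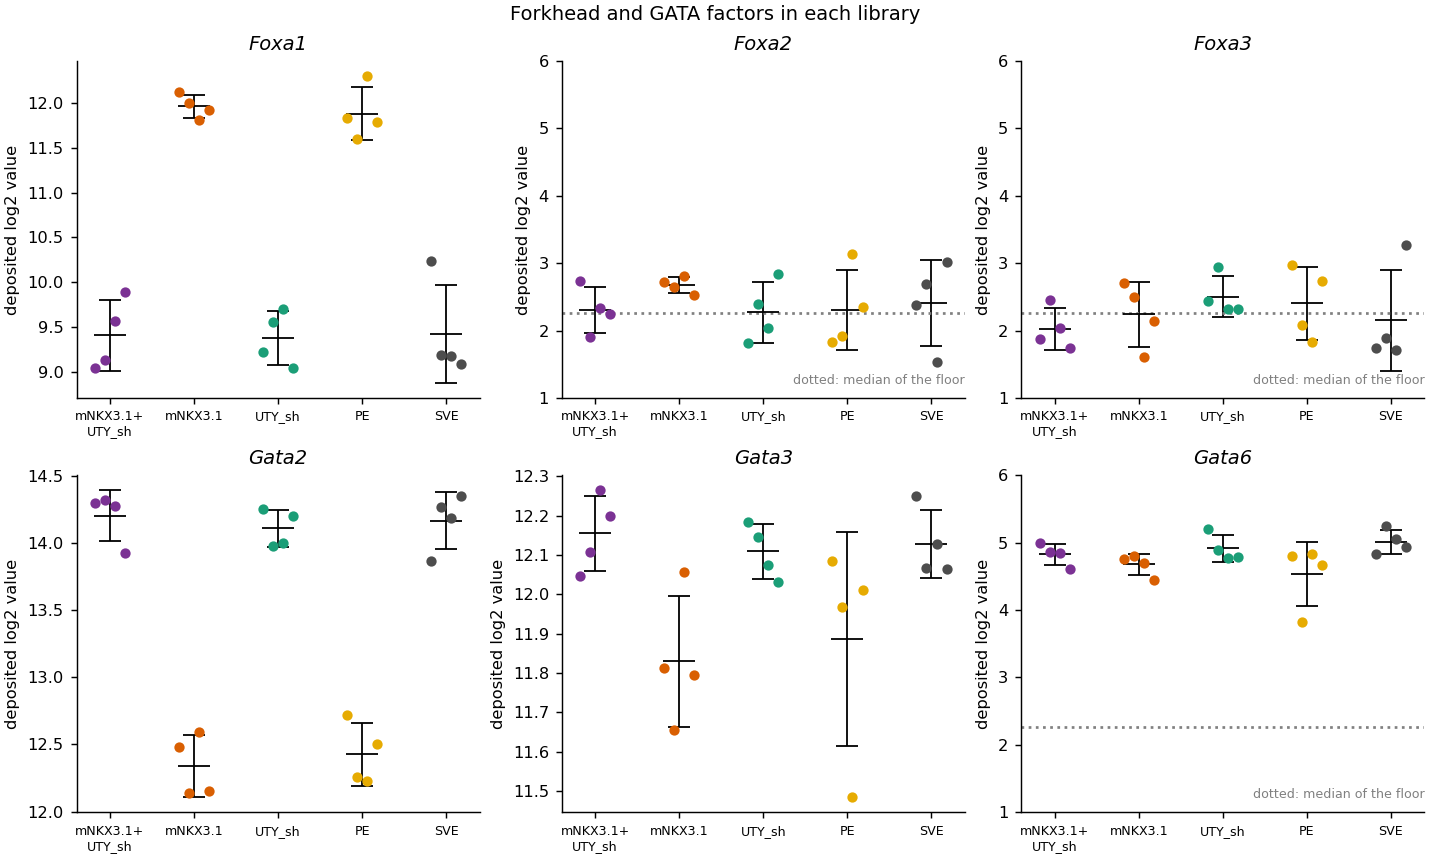
Deposited log2 values of the 6 factors, 1 point per library, with the group mean and SD as bars and the median of the floor as a dotted line for the low genes. Foxa1 is high where Gata2 is low, Gata3 moves within 11.49 to 12.26, and Foxa2 and Foxa3 scatter around the floor.

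Foxa2, Foxa3 and Gata6 did not pass the filter of a value of at least 5 in at least 4 libraries. Foxa2 was at the floor in 20 of 20 libraries, with values of 1.53 to 3.13, and Foxa3 in 19 of 20, with values of 1.61 to 3.27. Neither gene was detectable above the floor in any group, apart from SVE replicate 4 at 3.27 for Foxa3. Gata6 was above the floor in all 20 libraries and just missed the filter, reaching 5 in 3. Its values were 4.60 to 4.99 in mNKX3.1+UTY_sh, 4.45 to 4.80 in mNKX3.1, 4.78 to 5.20 in UTY_sh, 3.82 to 4.83 in PE and 4.82 to 5.24 in SVE. In a fit without the filter Gata6 passed in no comparison: it differed by -0.48 (limma, adjusted p = 0.0671) between PE and SVE and by -0.34 (adjusted p = 0.216) between mNKX3.1 and SVE. In the mNKX3.1 and SVE libraries its values did not overlap (exact permutation test, two-sided p = 0.0286, n = 4 each). That is the smallest p that 4 against 4 allows and was reached by 8 of 42 such tests of the 6 genes. How many of all genes did not overlap was not counted, and limma called 62.3% of tested genes between these groups.

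Levels of different genes were compared as normalised reads per kilobase of exon. Foxa1 had 207 ± 59.0 such reads in mNKX3.1+UTY_sh, 1201 ± 109 in mNKX3.1, 201 ± 42.3 in UTY_sh, 1149 ± 252 in PE and 216 ± 96.2 in SVE (SD, n = 4 each). Gata2 had 3521 ± 426 in mNKX3.1+UTY_sh, 969 ± 156 in mNKX3.1, 3286 ± 318 in UTY_sh, 1028 ± 170 in PE and 3433 ± 480 in SVE. Gata3 had 1146 ± 76.4 in mNKX3.1+UTY_sh, 918 ± 109 in mNKX3.1, 1109 ± 53.2 in UTY_sh, 962 ± 166 in PE and 1124 ± 69.0 in SVE. The 3 factors were thus near the same level per length in mNKX3.1 and PE, and far apart in the other groups. Per library, the level of Gata2 over that of Foxa1 was 10.2 to 24.0 in mNKX3.1+UTY_sh, 0.678 to 1.06 in mNKX3.1, 12.3 to 22.5 in UTY_sh, 0.586 to 1.14 in PE and 7.66 to 24.0 in SVE. Gata6 group means were only 2.38 to 3.64 such reads. Log2 values fell on steps of whole reads only from about 10.7 up. Foxa1 in mNKX3.1+UTY_sh, UTY_sh and SVE, and Gata6 in all groups, lay below that. Their levels here, and the ratios with Foxa1 in those groups, are therefore less certain.

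**Figure D2:**
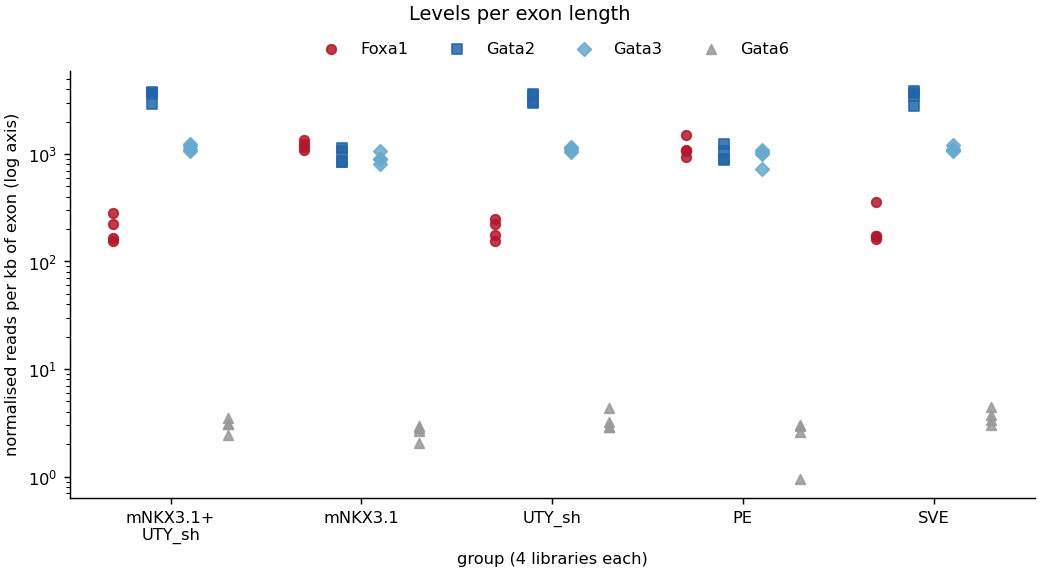
Normalised reads per kilobase of exon on a log axis for the 4 members above the floor, 1 point per library. Foxa1, Gata2 and Gata3 lie together in mNKX3.1 and PE, while in the other 3 groups Gata2 lies above Gata3 and Foxa1 below it.

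PE and SVE were compared to see how prostate and seminal vesicle epithelium differ under the same mesenchyme. Foxa1 was 5.49-fold higher in PE, by 2.46 on the log2 scale (SE 0.23, limma adjusted p = 5.63e-08). Foxa1 in SVE lay below about 10.7, where values did not fall on whole reads, so the size of this difference is less certain. The same holds below for Foxa1 in mNKX3.1 against SVE and in mNKX3.1+UTY_sh against mNKX3.1. Gata2 fell in PE to 0.299 of its SVE level, a log2 difference of -1.74 (SE 0.14, adjusted p = 4.58e-09). Gata3 differed by -0.24 (SE 0.11, adjusted p = 0.0548) and did not pass. In this comparison 2 of the 3 tested members were called, against 62.1% of all tested genes (31.8% higher and 30.4% lower), so being called did not set them apart. By size, 3.89% of tested genes had a larger change than Foxa1 and 7.25% a larger one than Gata2, but 63.3% a larger one than Gata3. PE and SVE did not overlap for Foxa1 or Gata2 (exact permutation test, two-sided p = 0.0286, n = 4 each), and overlapped for Gata3 (exact p = 0.0857). The share of all genes without overlap was not counted.

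The mNKX3.1 libraries were compared with the same SVE libraries to see what the construct changes. Foxa1 was 5.81-fold higher in mNKX3.1, by 2.54 (SE 0.23, limma adjusted p = 3.67e-08). Gata2 fell to 0.282 of its SVE level, a difference of -1.83 (SE 0.14, adjusted p = 2.39e-09), and Gata3 to 0.814 of it, a difference of -0.30 (SE 0.11, adjusted p = 0.0200). All 3 tested members were called, against 62.3% of tested genes (31.7% higher and 30.6% lower). The Gata3 call was lost without SVE replicate 1 (-0.26, adjusted p = 0.0577), without mNKX3.1 replicate 2 (-0.24, adjusted p = 0.0742) and without the 3 libraries rich in Pbsn that are described below (-0.26, adjusted p = 0.0738). The mNKX3.1 and PE libraries themselves differed by 0.08 for Foxa1 (95% interval -0.407 to 0.573), -0.08 for Gata2 (-0.369 to 0.202) and -0.06 for Gata3 (-0.278 to 0.163). None of the 3 was called there, as none of all tested genes was by limma (0%, with 65 genes or 0.483% at an unadjusted p below 0.05).

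Libraries with construct and hairpin were set against those with the construct. Foxa1 fell in mNKX3.1+UTY_sh to 0.170 of its mNKX3.1 level, by a difference of -2.56 (SE 0.23, limma adjusted p = 3.31e-08). Gata2 was 3.64-fold higher in mNKX3.1+UTY_sh, by 1.86 (SE 0.14, adjusted p = 1.74e-09), and Gata3 1.25-fold higher, by 0.32 (SE 0.11, adjusted p = 0.0118). All 3 tested members were called, against 63.8% of tested genes (31.4% higher and 32.4% lower). The interaction, in which the change between UTY_sh and SVE is taken off the change between mNKX3.1+UTY_sh and mNKX3.1, was -2.51 for Foxa1 (SE 0.33, adjusted p = 7.30e-06) and 1.92 for Gata2 (SE 0.19, adjusted p = 3.14e-07), against 48.1% of genes called. For Gata3 it was 0.34 (SE 0.15, adjusted p = 0.0651) and did not pass.

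Where the hairpin stood without the construct, or with it but set against SVE or UTY_sh, no member was called, and neither was any other tested gene by limma (0% in each of these 3 comparisons). At an unadjusted limma p below 0.05, 557 genes (4.14% of those tested) passed between mNKX3.1+UTY_sh and SVE. Between UTY_sh and SVE 316 (2.35%) passed, and between mNKX3.1+UTY_sh and UTY_sh 217 (1.61%). Such a threshold lets through a share of about 0.05 when no gene differs, and these shares were below that. Between mNKX3.1+UTY_sh and SVE, Foxa1 differed by -0.02 (95% interval -0.509 to 0.472) and Gata2 by 0.04 (-0.247 to 0.325). Between UTY_sh and SVE they differed by -0.04 (-0.535 to 0.446) and -0.06 (-0.343 to 0.229). Between mNKX3.1+UTY_sh and UTY_sh they differed by 0.03 (-0.465 to 0.516) and 0.10 (-0.190 to 0.382). None of these intervals reached the differences of the 2 genes in the called comparisons, but they do not show equal levels.

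**Figure D3:**
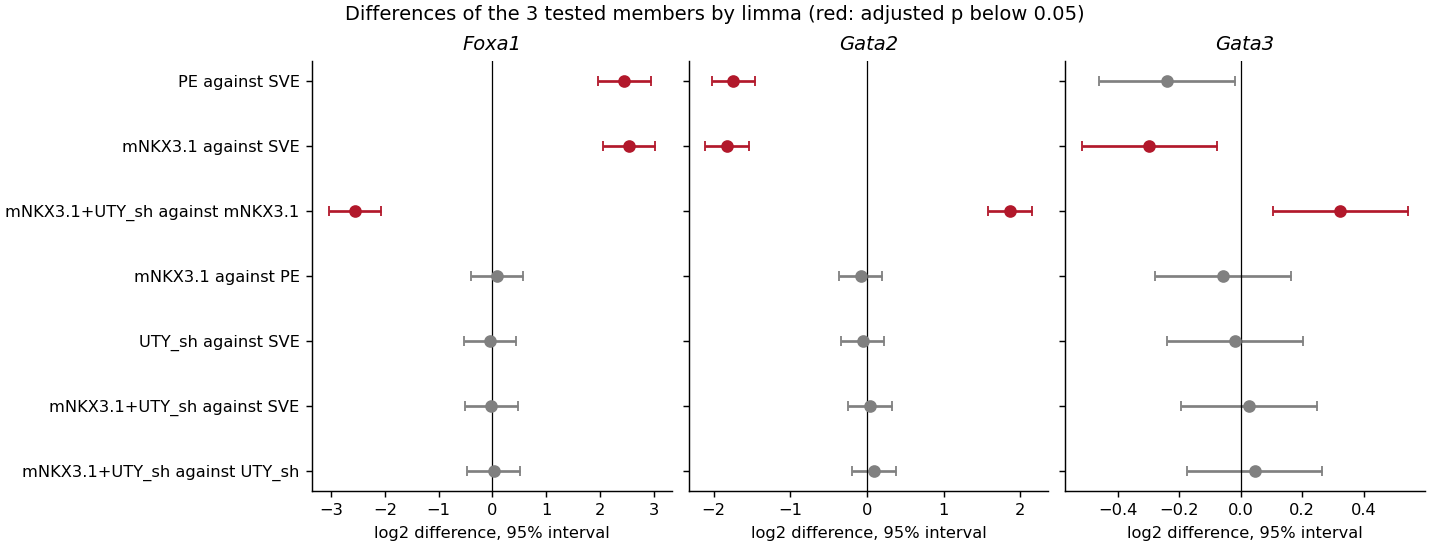
Log2 differences of the 3 tested members with 95% intervals from limma, the group named first minus the group named second, in red where the adjusted p was below 0.05. Foxa1 and Gata2 lie on opposite sides of 0 in the top 3 comparisons and near 0 in the other 4, and the axis of Gata3 covers a much smaller range.

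Over all 20 libraries the deviations of Foxa1 and of the prostate secretory gene Pbsn (probasin) from their group means were related, but not in every group. Pbsn was chosen with its values known because the amount of prostate secretory RNA differed widely among libraries of one label. Pbsn was 15.06 in mNKX3.1+UTY_sh replicate 4, 14.81 in UTY_sh replicate 3 and 15.71 in SVE replicate 1, against group means of 10.05, 12.08 and 9.92. These 3 libraries also held the highest Foxa1 value of their group, at 9.89, 9.70 and 10.24. In the other two groups, mNKX3.1 and PE, the library with the most Foxa1 was not the one with the most Pbsn, and Pbsn deviated only between -0.424 and 0.212, against -4.75 to 5.79 over mNKX3.1+UTY_sh, UTY_sh and SVE. In PE replicate 3, Foxa1 deviated by 0.42 and Pbsn by -0.42. Over the deviations of all 20 libraries from their group means, Foxa1 and Pbsn had a Pearson r of 0.834 (permutation p = 0.00173, Benjamini-Hochberg 0.00865 over 5 relations) and a Spearman rho of 0.726 (permutation p = 0.00961, adjusted 0.0315). Without the 2 libraries with the farthest Foxa1 deviations, SVE replicate 1 and mNKX3.1+UTY_sh replicate 4, r was 0.692 (permutation p = 0.0274).

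Foxa1 and Gata2 deviated in opposite directions, with r = -0.645 (permutation p = 0.00605, adjusted 0.0103) and rho = -0.562 (permutation p = 0.0126, adjusted 0.0315). In 3 of the 5 groups the library with the most Foxa1 was the one with the least Gata2. Without the same 2 libraries r was -0.444 (permutation p = 0.0920), so this relation was weaker and did not pass without them. Gata2 and Pbsn had r = -0.555 (permutation p = 0.00616, adjusted 0.0103) and rho = -0.411 (permutation p = 0.0887, adjusted 0.148). Without the 2 libraries r was -0.294 (permutation p = 0.0988), so this relation too was weaker and did not pass. Foxa1 and Gata3, at r = -0.02 (permutation p = 0.928) and rho = 0.236 (permutation p = 0.313), and Gata2 and Gata3, at r = 0.332 (permutation p = 0.280) and rho = 0.174 (permutation p = 0.526), showed no relation that passed. The part of prostate tissue in those libraries was not tested. Without the 3 libraries rich in Pbsn the differences of Foxa1 and Gata2 named above were all still called. That does not bear on this part, because those 3 held the highest Foxa1 of their groups. SVE replicate 1 and mNKX3.1+UTY_sh replicate 4 also held the lowest Gata2 of theirs. Pbsn was also 13.81 in UTY_sh replicate 2, which stayed in.

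**Figure D4:**
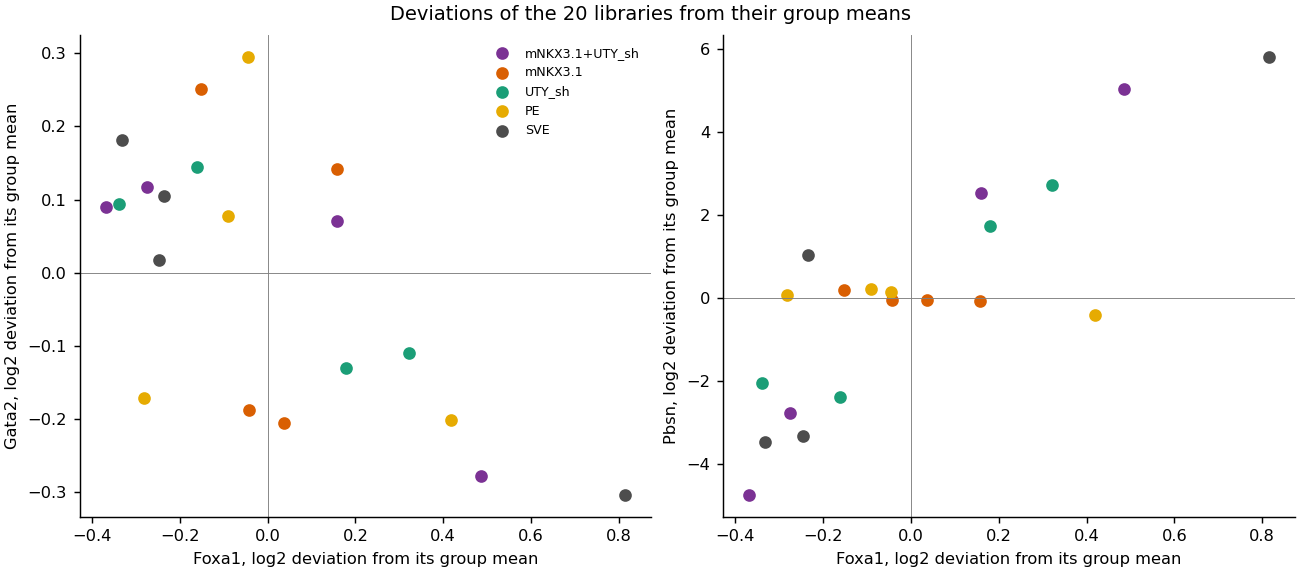
Deviation of each of the 20 libraries from its group mean, for Gata2 against Foxa1 (left) and Pbsn against Foxa1 (right), log2 scale, coloured by group. SVE replicate 1 and mNKX3.1+UTY_sh replicate 4 stand at the far right of both plots, with the lowest Gata2 deviations and the highest Pbsn deviations.

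The genes whose values over the 20 libraries were most like a member's followed the same split of groups. For Foxa1 these were Mme, the gene of the membrane peptidase neprilysin, with r = 0.996, Zfp703 and Anxa4 (each 0.996), and for Gata2 the T-box gene Tbx3 (0.997), Ildr1 (0.996) and Eef2k (0.995). Foxa1 and Gata2 themselves had r = -0.981, which put Gata2 at rank 13290 of the 13455 genes compared with Foxa1. For Gata3 the most alike were Ret (0.938), Cux2 (0.936) and Slc25a28 (0.931). By deviations from the group means, Mme (0.960) again stood near Foxa1, with Acrbp (0.965) and Liph (0.950). Tbx3 (0.926) stood near Gata2, with Lad1 (0.936) and Mfsd6 (0.924), and Cux2 (0.925) near Gata3, with Peg3 (0.925) and Gnas (0.920). These are descriptions over 20 libraries that share depth and composition within a group.

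Of 41 other forkhead genes 16 could be tested. In PE against SVE 6 were higher and 5 lower, in mNKX3.1 against SVE 5 higher and 5 lower, and in mNKX3.1+UTY_sh against mNKX3.1 6 higher and 7 lower. These shares were near or somewhat above those of all tested genes, of which 62.1%, 62.3% and 63.8% were called in these comparisons. Their median log2 difference was 0.06 in PE against SVE, beside 0.02 over all tested genes. It was 0.03 in mNKX3.1 against SVE, beside 0.02, and -0.11 in mNKX3.1+UTY_sh against mNKX3.1, beside -0.02. The 3 FOXO genes tested, whose proteins are targets of insulin signalling, were each called lower in mNKX3.1 against SVE (limma), where 30.6% of all tested genes were: Foxo4 changed by -0.84 (adjusted p = 1.42e-08), Foxo3 by -0.87 (adjusted p = 2.84e-06) and Foxo1 by -0.46 (adjusted p = 2.20e-06). Foxk1 changed by -0.46 (adjusted p = 1.18e-05). Foxp2, a repressor of the FOXP branch, rose by 2.10 (adjusted p = 2.01e-07), to 7.34 in mNKX3.1 against 5.24 in SVE.

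Of 10 other GATA-type genes and FOG cofactors 6 were tested, and in mNKX3.1 against SVE 1 was higher and 3 lower, as in PE against SVE. In mNKX3.1+UTY_sh against mNKX3.1, 3 were higher and 1 lower. With 62.3%, 62.1% and 63.8% of all tested genes called, these counts were near the background. The median was -0.31 in mNKX3.1 against SVE and in PE against SVE, and 0.27 in mNKX3.1+UTY_sh against mNKX3.1. Zfpm1, whose protein FOG1 binds GATA factors as a cofactor, moved in the direction of Gata2: it changed by -1.47 in mNKX3.1 against SVE (limma adjusted p = 6.47e-08) and was 1.47 higher in mNKX3.1+UTY_sh than in mNKX3.1 (adjusted p = 6.36e-08). Its relative Zfpm2 changed by -0.57 and Gatad2b, which encodes a subunit of the NuRD complex, by -0.45 in mNKX3.1 against SVE, where Trps1, an atypical GATA repressor, rose by 0.37. Of the classical family members, Gata1, Gata4 and Gata5 did not pass the filter, with group means of at most 3.09, 3.30 and 4.21.

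All 17 partner transcription factors were tested, and 8 were higher and 5 lower in mNKX3.1 against SVE, 7 and 6 in PE against SVE, and 5 and 7 in mNKX3.1+UTY_sh against mNKX3.1, beside 62.3%, 62.1% and 63.8% of all tested genes. Hoxb13, the posterior homeobox gene of prostate, was 12.32, 12.18, 12.11 and 12.21 in mNKX3.1, against 10.20, 5.26, 2.86 and 1.49 in SVE. SVE replicate 1, rich in Pbsn, stood far above the other SVE libraries, of which 2 were at the floor, but the groups did not overlap. The difference was 7.25 (SE 1.57, limma adjusted p = 0.000581), and 9.002 without SVE replicate 1. Esr1, the estrogen receptor gene, rose by 1.52 and the ETS factor gene Ehf by 1.18 in mNKX3.1 against SVE, whereas the ETS factor gene Elf3 changed by -0.92 and the grainyhead gene Grhl2 by -0.49.

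**Figure D5:**
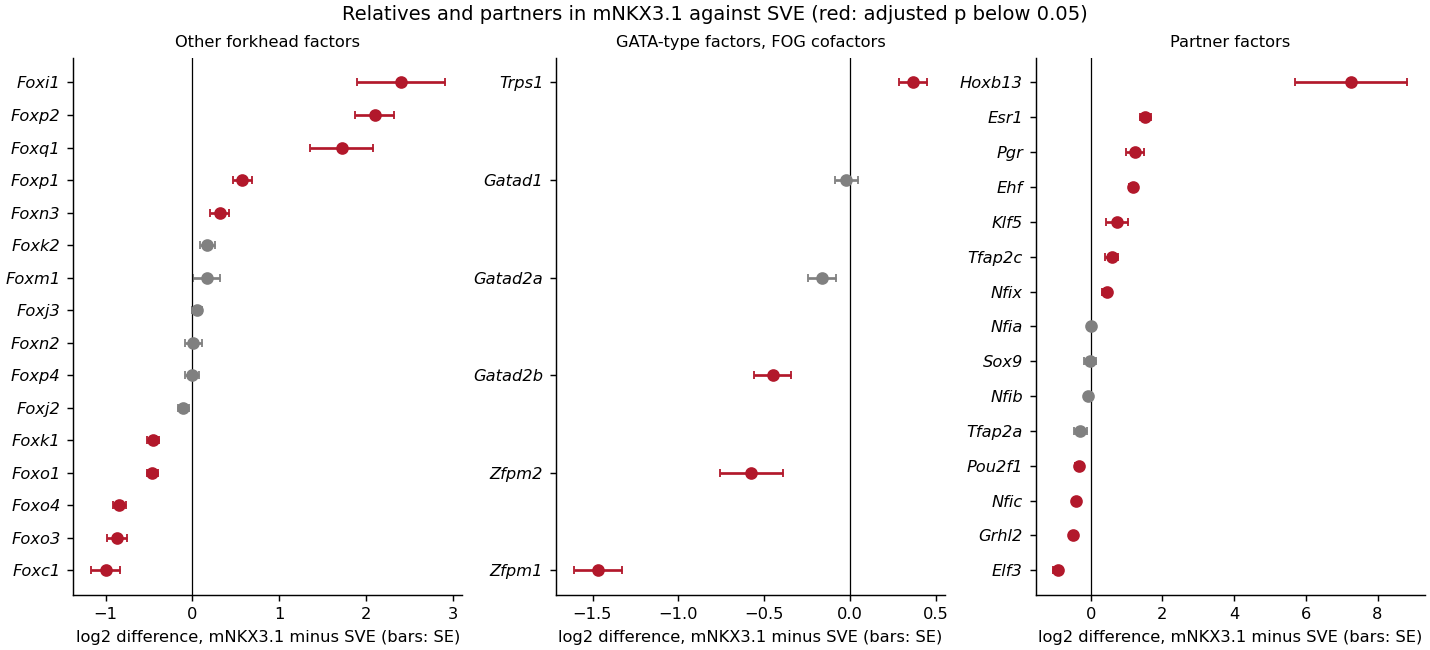
Log2 differences with SE in mNKX3.1 against SVE for the tested other forkhead genes, the GATA-type genes with FOG cofactors, and most of the partner factors, in red where limma's adjusted p was below 0.05. The Foxo genes and Zfpm1 lie below 0, Foxp2 above it, and Hoxb13, at 7.25, far above the other partners shown.

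The chromatin cofactors gave 18 tested genes, 6 higher and 6 lower in mNKX3.1 against SVE, 7 and 6 in PE against SVE, and 6 and 6 in mNKX3.1+UTY_sh against mNKX3.1, which is near the 62.3%, 62.1% and 63.8% of all tested genes called. In mNKX3.1 against SVE, Tle3, a Groucho corepressor, rose by 1.12 and the SWI/SNF ATPase gene Smarca4 by 0.63, and Crebbp, a histone acetyltransferase gene, changed by -0.50, Arid1a by -0.40 and Ncoa2 by -0.32. Of 16 endodermal and secretory genes with described FOXA or GATA control 12 were tested, and 8 were higher and 1 lower in mNKX3.1 against SVE and in PE against SVE, while 1 was higher and 7 were lower in mNKX3.1+UTY_sh against mNKX3.1. Of all tested genes 31.7% were called higher and 30.6% lower in mNKX3.1 against SVE. The 5 with the smallest p in mNKX3.1 against SVE were Cdh1 (0.73), the ETS factor gene Spdef (0.70), the protease gene Tmprss2 (3.39), the prostate spermine-binding protein gene Sbp and Creb3l1 (0.67). The difference of Tmprss2 was 4.01 without SVE replicate 1, where its value was 11.38, against 8.69 to 9.22 in the other SVE libraries. Sbp was 18.48, 18.53, 8.46 and 18.22 in mNKX3.1, against 3.19, 1.84, 3.45 and 2.27 in SVE. The third mNKX3.1 library was far below the others, and the SVE values lay at or near the floor. The fitted difference of Sbp, 13.24 with all libraries and 15.72 without mNKX3.1 replicate 3, is therefore not a measure of its size. Of 8 Wolffian duct regulators linked to GATA3, 6 were tested: 5 fell and 0 rose in mNKX3.1 against SVE and in PE against SVE, and 5 were higher in mNKX3.1+UTY_sh than in mNKX3.1. In mNKX3.1 against SVE the paired-box genes Pax2 and Pax8 changed by -5.30 and -2.24, Emx2 by -1.98 and the receptor kinase gene Ret by -1.51. Gata3 itself differed by -0.30 there, a far smaller change.

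Markers of other cells moved with the same groups. Luminal epithelial markers were called higher for 8 of 9 and lower for 1 in mNKX3.1 against SVE, with a median difference of 0.47 (31.7% of all tested genes were called higher and 30.6% lower), and their summed level was 60904 to 71860 normalised reads in mNKX3.1 and 29826 to 41280 in SVE. In PE against SVE the counts were the same, with a summed level of 59947 to 75041 in PE. Cdh1 and Epcam, with differences of 0.73 and 1.73 in mNKX3.1 against SVE, had the smallest p of that list. Of 7 tested basal markers 2 were higher and 3 lower in mNKX3.1 against SVE. Trp63, which encodes the basal regulator p63, changed by -1.10, and Ngfr, a neurotrophin receptor gene, was 2.47 higher. The part of luminal and basal cells in the difference of Foxa1 was not tested.

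Most markers of mast cells and endothelium, which also use GATA2, were lower where Gata2 was lower. The marker counts here stand beside 30.6% of all tested genes called lower and 31.7% higher in mNKX3.1 against SVE. In PE against SVE these shares were 30.4% and 31.8%. Of 6 tested mast cell markers, 5 fell and 0 rose in mNKX3.1 against SVE, and likewise in PE against SVE. Their summed level was 229 to 494 normalised reads in mNKX3.1, 238 to 642 in PE and 726 to 1230 in SVE, with differences of -1.55 for Tpsb2 and -1.64 for Cma1 in mNKX3.1 against SVE, and no mast cell marker was at the floor. The group mean of Gata2 was 5233 normalised reads in mNKX3.1, 5547 in PE and 18533 in SVE. Of 8 endothelial markers 6 fell and 1 rose in mNKX3.1, with a summed level of 1575 to 1780 in mNKX3.1 and 2119 to 2402 in SVE. Kdr and Esam changed by -0.95 and -0.54. Of 8 listed markers of T cells and innate lymphoid cells, where GATA3 acts, only 2 were high enough to be tested. Both fell, with differences of -1.44 for Thy1 and -1.78 for Il2rb. The summed level of the whole list was 310 to 436 in mNKX3.1 and 879 to 1173 in SVE, and Cd3d was at the floor in both groups. All 10 smooth muscle markers fell, with a summed level of 60710 to 71760 in mNKX3.1 and 117257 to 188481 in SVE. Of the other marker lists, 12 of 12 prostate secretory genes rose and 9 of 10 seminal vesicle secretory genes fell in mNKX3.1 against SVE. Fibroblast and matrix genes fell for 5 of 8, adipocyte genes rose for 5 of 5 and nerve and neuroendocrine genes for 4 of 5, and leukocyte genes rose for 2 of 8. Urothelial genes gave 2 higher and 2 lower of 4, kidney genes 1 lower of 1, and the 1 red blood cell gene tested was not called. The part of these cells in the values of Gata2, Gata3 and Gata6 was not tested.

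Neighbouring and overlapping genes were checked because the labels do not say whether reads were counted by strand. Foxa1 overlaps 4921506M07Rik (Ttc6), which averaged 6.74 and differed by 0.39 in mNKX3.1 against SVE (limma adjusted p = 0.0904), so it was not called. Gata3 overlaps the noncoding RNA genes 9230102O04Rik and 4930412O13Rik. The RNA 4930412O13Rik was as abundant as Gata3, with a mean of 12.36, and was 0.73 higher in mNKX3.1 than in SVE, opposite to Gata3. Reads of Gata3 and of that gene cannot be told apart if strand was not used, so the small differences of Gata3 are uncertain. Gata2 overlaps Gm38708 and Gata6 overlaps Gata6os, which were not analysed here, so the same limit holds for those 2 members. Among the 3 genes on each side, 4 tested neighbours of Foxa1, 5 of Gata2 and 4 of Gata3 gave 1 higher and 1 lower each in mNKX3.1 against SVE (limma), those that overlap included. The shares over all tested genes were 31.7% higher and 30.6% lower. Prps1l3 near Foxa1 was 0.57 higher (limma adjusted p = 0.000396), while Clec14a near Foxa1 changed by -0.42 (adjusted p = 0.0149), opposite to Foxa1. Gm5577 near Gata2 changed in the direction of Gata2, by -2.04 (adjusted p = 3.51e-07), and was 2.12 higher in mNKX3.1+UTY_sh than in mNKX3.1. Rpn1, also near Gata2, was 0.29 higher in mNKX3.1 than in SVE (limma adjusted p = 0.00141), opposite to Gata2. Taf3 near Gata3 changed by -0.53 (adjusted p = 2.42e-06).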

How the data were processed

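The deposited table held 1 log2 value per gene and library. The submitters' processing notes list DESeq, the build mm9, the aligner TopHat2 (2.0.4), Cufflinks (2.0.2) and bcl2fastq (1.8.4), without their order, and the labels' protocols give TruSeq libraries sequenced on an Illumina instrument. How reads were counted, against which annotation, and what was done with rat reads is not given in the sources used here. Antilogs of high values, less a constant of 9.50, were steps of 1 read (99.9% of 26366 values, within 0.1 read), which gave depths and reads. Lower values were not, so Foxa1 gave whole reads in 8 libraries, Gata2 and Gata3 in 20, and no count test was run. What altered the low values is unknown here.

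The deposited log2 values were used as they stood, with no pseudocount. Genes with a value of at least 5 in at least 4 libraries (13456) entered 1 model of 5 group means in limma 3.58.1 (R 4.3.3), with a variance trend. P-values were adjusted by Benjamini-Hochberg per comparison, and genes under 0.05 were called. All groups share 1 spread per gene. Single genes were also tested by exact permutation, and relations by 100000 permutations within groups. Exon lengths came from GENCODE M21. The fit was tested on simulated data. Normalised reads were back-calculated from the log2 values.

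The members and lists were chosen with earlier results of these data known. The lists held other forkhead genes, GATA-type genes and FOG cofactors, partner factors, chromatin cofactors, endodermal and secretory genes, Wolffian duct regulators, and cell type markers. From each gene list the up to 5 called genes, and from the marker lists discussed up to 2, with the smallest p in mNKX3.1 against SVE are named, with Hoxb13 besides, chosen after its values were seen. Some genes that this rule selects are not reported here. The alternatives were other scalings, filters and variance settings, other sets of libraries, and leaving out each library.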

Additional observations from a re-analysis of the deposited data

Results flagged for a closer look

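In 30 gene and group combinations of 4 libraries, 4 values stood far from the other 3, and chance alone flags about 1 in 20. Foxa1 in SVE replicate 1 was 10.24, against 9.09 to 9.19 in the other SVE libraries. Gata2 in mNKX3.1+UTY_sh replicate 4 was 13.93, against 14.28 to 14.32 in the others of its group. Both libraries were among the 3 rich in Pbsn, and the part of prostate tissue in them was not tested. Gata6 in PE replicate 2 was 3.82, against 4.67 to 4.83 in the other PE libraries. Foxa3 in SVE replicate 4 was 3.27, the only Foxa3 value above the floor.

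For 2 of the 3 tested members, the difference between hairpin labels changed with the construct label, by a test of that interaction. Among all tested genes 48.1% were called in it, and the labels are not verified genotypes. The change between mNKX3.1+UTY_sh and mNKX3.1, less that between UTY_sh and SVE, was -2.51 for Foxa1 (limma adjusted p = 7.30e-06) and 1.92 for Gata2 (adjusted p = 3.14e-07).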

How the results depend on the processing

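Over 28 settings, 690 of 699 alternative values kept their side of the threshold and any called direction or, for counts, stayed within 1.5 times. The 690 include the values of Foxa2, Foxa3 and Gata6, whose only alternative was the fit without the filter. That fit also gave their main values, so these could not differ and say nothing of stability. Differences that were not called could change sign, as that of Foxa1 in UTY_sh against SVE did (-0.155 to 0.227). The 9 remaining of the 699 values all concerned Gata3, and the cause was not tested. In PE against SVE it passed with equal library medians (-0.25, limma adjusted p = 0.0499), quantile normalization (-0.31, adjusted p = 0.0176), without PE replicate 1 (-0.31, adjusted p = 0.0222) and without PE replicate 4 (-0.28, adjusted p = 0.0427). In the interaction it passed with quantile normalization (0.40, adjusted p = 0.0334) and without mNKX3.1 replicate 3 (0.42, adjusted p = 0.0255). The 3 lost calls in mNKX3.1 against SVE are given above. Foxa1 in PE against SVE stayed between 2.32 and 2.73 and Gata2 between -1.84 and -1.67. Counts of lists and named list genes were also taken without libraries, alternatives chosen after seeing the data. Without the 3 libraries rich in Pbsn, 4 chromatin cofactors were higher in mNKX3.1 against SVE, against 6 with all libraries, and 2 endodermal and secretory genes were lower in PE against SVE, against 1. Several other counts changed too. In mNKX3.1 against SVE, 7 luminal markers were higher, against 8, and 5 endothelial markers lower, against 6. In PE against SVE, 5 other forkhead genes were higher, against 6, and 4 basal markers lower, against 3. Of 37 named list genes, the difference of 3 moved over 1.5-fold when 1 library was left out, and these are given above. No paired analysis was possible because the labels number the libraries once through the series and pair none across groups. A change of pseudocount was not run, as the values were already logged. The floor limits what can be said of Foxa2 and Foxa3.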
